A study of Mus musculus with 4 samples.

Results

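The 40 genes described here are the protein-coding genes of GENCODE vM21 whose symbol starts with Psma, Psmb, Psmc or Psmd and a number, out of 21853 protein-coding genes in all. By role they are 7 genes of the alpha ring (Psma1 to Psma7), 7 of the constitutive beta ring (Psmb1 to Psmb7), 3 of the immunoproteasome (Psmb8, Psmb9 and Psmb10), 2 tissue-restricted subunits (Psma8 of testis and Psmb11 of thymus), 6 ATPases (Psmc1 to Psmc6) and 11 non-ATPases of the regulatory particle, and 3 assembly chaperones of that particle (Psmd5, Psmd9 and Psmd10). The symbol rule also takes Psmc3ip, which encodes a factor of meiotic recombination and no proteasome subunit. Their promoters were read in 3 peak lists from mouse colorectal tumour organoids, cultures of tumour epithelium induced by azoxymethane and dextran sulfate sodium (AOM/DSS; clone 3, passage 14, genotype given as NA). The lists come from chromatin immunoprecipitation with sequencing (ChIP-seq) with antibodies to KMT9alpha, to KMT9beta and to the mark H4K12me1, monomethylation of lysine 12 on histone H4, with 1 library per antibody from this 1 clone. All libraries, the input among them, share these organoids and a treatment text that names tamoxifen at 1 µM and vehicle without assigning either to a library. The input library is not analysed here.

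The proteasome is the protease complex that destroys proteins tagged with ubiquitin. Its core particle stacks rings of alpha subunits, which gate the entry, around rings of beta subunits, of which Psmb5, Psmb6 and Psmb7 carry the cutting sites. The regulatory particle on its end binds the tagged protein, removes the ubiquitin and unfolds the chain with a ring of ATPases. Interferon-gamma induces Psmb8, Psmb9 and Psmb10, which replace Psmb5, Psmb6 and Psmb7 and change the peptides made for antigen presentation. KMT9alpha and KMT9beta, encoded by N6amt1 and Trmt112, together form the methyltransferase KMT9, which writes H4K12me1.

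Promoter here means the 1 kb before and after each start of the gene's protein-coding transcripts, and a gene counts as carrying a library when at least 1 bp of a peak lies there. A peak's score is the authors' own value for that peak, and it is compared only within its list. The depth behind the lists is unknown, and no value below has a replicate check, so no p-value is given. Intervals are exact Clopper-Pearson 95% intervals that cover counting over genes only. Peaks of all 3 libraries are more frequent at promoters rich in CpG dinucleotides. Most shares of genes with a promoter peak are therefore also set beside the share in genes of the same CpG class. The 5 equal classes are of the observed to expected CpG ratio within 500 bp of the start.

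Most proteasome genes carried both enzyme proteins, while the mark was present at fewer of them, near its share over all genes. KMT9alpha was present at 37 of 40 promoters (92.5%, 79.6 to 98.4), against 54.2% of all protein-coding genes and 76.2% in genes of the same CpG classes. KMT9beta was present at 36 of 40 (90.0%, 76.3 to 97.2), against 65.1% of all genes and 84.8% by CpG class, so its share lies close to that of like promoters. H4K12me1 was present at 17 of 40 (42.5%, 27.0 to 59.1), against 44.9% of all genes and 58.7% by CpG class, the last inside the interval. All 3 were present at 15 of 40 (37.5%, 22.7 to 54.2), against 35.5% and 49.5%, which is near the background of all genes. Both enzyme proteins without the mark were found at 19 of 40 (47.5%, 31.5 to 63.9), against 15.5% of all genes and 22.4% by CpG class, and both values lie below the interval. None of the 3 was found at 1 of 40 (interval 0.0633% to 13.2%), against 29.6% of all genes and 9.36% by CpG class, the last inside the interval. The proteasome promoters are CpG-rich, with a median ratio of 0.74 against 0.61 over all genes, and none fell in the lowest CpG class.

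Read from the other side, 34 of the 40 carried both enzyme proteins (interval 70.2% to 94.3%), against 51.0% of all genes and 71.9% by CpG class, the last inside the interval. Of those 34, 15 carried the mark (44.1%, 27.2 to 62.1). Over all genes with both enzyme proteins the mark was present at 69.6%, and in those of the same CpG classes as the 34 at 68.3%, both above the interval. By class these shares over all genes with both enzyme proteins were 63.3% in CpG class 3, 69.7% in class 4 and 74.7% in class 5. Of the 21 members whose KMT9alpha peak reached a score of 3100, near the top of that list's scale, 11 had H4K12me1 (52.4%, 29.8 to 74.3), against 73.3% (72.1 to 74.5) of the 5405 genes that reached it, a value inside the interval of the members.

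**Figure D1:**
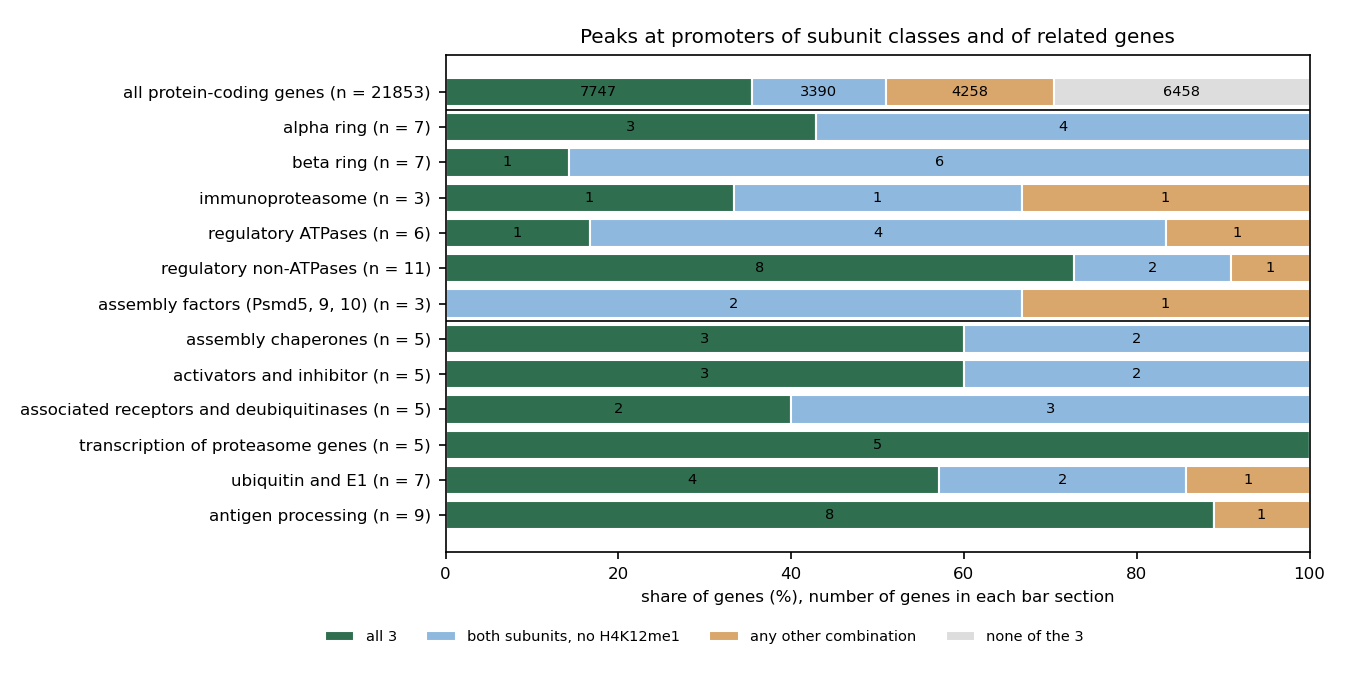
Share of genes (x axis, %) with peaks of all 3 libraries, of both enzyme proteins without H4K12me1, of any other combination or of none at the promoter, with the number of genes written in each section. The top bar gives all protein-coding genes, the next 6 bars the classes of proteasome genes and the last 6 bars related genes; the blue section is 6 of 7 in the beta ring and 2 of 11 in the regulatory non-ATPases.

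The stretches just before the start of 5 members are printed as examples. They were chosen to show the 2 most frequent states, all 3 (Psmd4 and Psmd2) and both enzyme proteins only (Psmb5 and Psmb6), beside a promoter with KMT9alpha only (Psmd14). Each is read 5′ to 3′ on the gene's strand from the RefSeq promoter table of GRCm38.p6, the assembly behind mm10, and ends before any annotated exon. Capitals mark 2 motifs looked for on both strands, CCGGAAG of ETS factors and TGACNNNGC, the core of the antioxidant response element. In motif content the examples are not typical of the members. CCGGAAG was found in 12 of 35 member windows and TGACNNNGC in 5 of 35.
Psmd4: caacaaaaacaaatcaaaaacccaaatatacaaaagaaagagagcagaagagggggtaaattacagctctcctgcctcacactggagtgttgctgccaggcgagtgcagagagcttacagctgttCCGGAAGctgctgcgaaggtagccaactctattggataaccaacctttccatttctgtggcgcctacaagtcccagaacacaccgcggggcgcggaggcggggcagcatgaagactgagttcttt
Psmd2: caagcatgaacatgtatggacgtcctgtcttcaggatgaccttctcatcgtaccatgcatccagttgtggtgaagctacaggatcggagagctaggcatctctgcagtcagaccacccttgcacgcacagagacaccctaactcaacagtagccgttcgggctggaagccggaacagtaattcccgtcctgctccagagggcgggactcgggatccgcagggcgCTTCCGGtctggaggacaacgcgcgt
Psmb5: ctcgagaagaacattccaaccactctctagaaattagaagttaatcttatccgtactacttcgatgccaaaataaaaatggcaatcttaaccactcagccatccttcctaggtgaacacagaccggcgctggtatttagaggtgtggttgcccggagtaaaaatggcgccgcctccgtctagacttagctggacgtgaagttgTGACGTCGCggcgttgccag
Psmb6: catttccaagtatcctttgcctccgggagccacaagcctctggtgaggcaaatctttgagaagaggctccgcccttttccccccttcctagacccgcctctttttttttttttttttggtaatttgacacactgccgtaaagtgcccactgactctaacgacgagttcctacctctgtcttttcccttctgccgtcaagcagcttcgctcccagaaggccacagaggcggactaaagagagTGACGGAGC
Psmd14: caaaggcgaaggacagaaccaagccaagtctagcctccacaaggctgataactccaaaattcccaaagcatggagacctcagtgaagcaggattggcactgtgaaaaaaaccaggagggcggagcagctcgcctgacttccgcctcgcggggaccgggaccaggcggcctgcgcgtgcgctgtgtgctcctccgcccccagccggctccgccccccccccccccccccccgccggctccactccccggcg
The Psmd4 stretch, chr3:95042615-95042864 on the minus strand, holds 9 CpG dinucleotides and lies whole inside peaks of KMT9alpha and KMT9beta and partly inside one of H4K12me1. The Psmd2 stretch, chr16:20651402-20651651 on the plus strand, holds 16 CpG dinucleotides and is covered in the same way. The Psmb5 stretch, chr14:54618023-54618245 on the minus strand, holds 14 CpG dinucleotides and lies whole inside both enzyme peaks, with no H4K12me1 peak. The Psmb6 stretch, chr11:70525107-70525356 on the plus strand, holds 10 and lies whole inside the KMT9beta peak and partly inside the KMT9alpha peak. The Psmd14 stretch, chr2:61711444-61711693 on the plus strand, holds 18, the most of these 5, and lies whole inside a KMT9alpha peak alone. Among these 5 the number of CpG dinucleotides does not follow the presence of the mark.

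The constitutive core genes all carried both enzyme proteins, and fewer of them carried the mark. All 14 had KMT9alpha and all 14 had KMT9beta (100%, 76.8 to 100). In genes of the same CpG classes these shares were 83.2% and 89.9%, both inside the interval, and over all genes 54.2% and 65.1%. H4K12me1 was present at 4 of 14 (28.6%, 8.39 to 58.1). The share by CpG class, 62.9%, lies above this interval, and that over all genes, 44.9%, lies inside it. The other 10 (71.4%, 41.9 to 91.6) had both enzyme proteins without the mark, against 24.1% by CpG class and 15.5% of all genes.

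In the alpha ring, whose subunits form the gate, 3 of 7 genes had H4K12me1 (42.9%, 9.90 to 81.6, against 65.3% by CpG class): Psma4, Psma6 and Psma7. Psma7 stood highest of all 40 genes in both the KMT9beta list, with a score of 708.20, and the H4K12me1 list, with 337.67, and its KMT9alpha score was 3100. Its 3 peaks were also the widest highest-scoring peaks of the members in each list: the KMT9alpha peak (180041380 to 180043494 on chromosome 2) measured 2115 bp, that of KMT9beta 2154 bp and that of H4K12me1 2087 bp. Psma7 shares this promoter with Ss18l1 on the other strand, whose start lies 76 bp away. Psma6 had an H4K12me1 peak over its principal start with a score of 86.59 and a higher one, 106.26, at an alternative start about 14 kb upstream. Psma4 had the mark at 60.43, near the lowest score in the list, 50. Psma1, Psma2, Psma3 and Psma5 had none, and their KMT9alpha scores were 2492.93, 3100, 3100 and 1158.06. KMT9beta scores in the alpha ring other than Psma7 ran from 140.14 to 227.82. The 3 genes with the mark all reached 3100 in the KMT9alpha list, and so did 2 of the 4 without it.

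In the constitutive beta ring the mark was present at 1 of 7 genes (14.3%, 0.361 to 57.9), Psmb4, with a score of 65.64. The share over all genes, 44.9%, lies inside this interval, and that by CpG class, 60.5%, just above it. The catalytic genes all lacked it. Psmb5 (chr14:54614119-54618022), which encodes the chymotrypsin-like site, scored 3100 in the KMT9alpha list, in a peak from 54617215 to 54618492, and 135.70 in the KMT9beta list. Psmb6 (chr11:70525367-70527858), the caspase-like site, had KMT9alpha at 1590.94 and KMT9beta at 73.87, the lowest KMT9beta score of the constitutive core. Psmb7 (chr2:38588036-38644087), the trypsin-like site, had 3100 and 138.35. The nearest H4K12me1 peak to the principal start lay 14441 bp away for Psmb5, 9233 bp for Psmb6 and 14313 bp for Psmb7. Psmb1 and Psmb2, both structural subunits, had 2715.97 and 3100 for KMT9alpha and 144.13 and 94.18 for KMT9beta. Psmb3 differed from its ring in the KMT9beta list, with 634.55 against a range of 73.87 to 153.08 in the other 6, while its KMT9alpha score, 1515.10, was the lowest of the ring. An H4K12me1 peak lay 1501 bp from the Psmb3 start, just outside the promoter window.

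The immunoproteasome genes were set against the catalytic subunits they replace. Psmb8 had no KMT9alpha peak and Psmb9 a low score, 537.27, while Psmb10, at 1501.60, was close to Psmb6, at 1590.94. Of the KMT9alpha peaks only that of Psmb10 covered no start. With 3 genes, of which Psmb8 and Psmb9 are neighbours on chromosome 17, these are values of single promoters. KMT9alpha was present at 2 of 3 (9.43% to 99.2%), KMT9beta at 3 of 3 (29.2% to 100%) and H4K12me1 at 2 of 3 (9.43% to 99.2%). Over all genes these shares were 54.2%, 65.1% and 44.9%, and by CpG class 51.5%, 67.0% and 43.5%, all inside the intervals. Psmb5, Psmb6 and Psmb7 had KMT9alpha and KMT9beta at 3 of 3 and the mark at none, and so few genes show no difference between the groups. The CpG ratios were 0.26 at Psmb10, 0.58 at Psmb8 and 0.66 at Psmb9, against 0.67 to 0.79 at Psmb5, Psmb6 and Psmb7, and the part of CpG content in these values was not tested.

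Psmb9 (chr17:34181987-34187764) carried all 3, with 537.27 for KMT9alpha (34187606 to 34188365), 436.04 for KMT9beta and 176.98 for H4K12me1. It shares the promoter with Tap1, the gene of a peptide transporter for antigen presentation, 38 bp away on the other strand, so the peaks belong to both genes. Its KMT9beta score stood at percentile 91.7 and its H4K12me1 score at 89.7 among all genes, counting genes without a peak as lowest, while its KMT9alpha score stood at 54.3. Psmb8 (chr17:34197721-34201454) had no KMT9alpha peak at the promoter, and the nearest one lay 6472 bp from its start. It had KMT9beta at 55.00, the lowest KMT9beta score of the members, and H4K12me1 at 146.37 in a peak 297 to 1023 bp downstream of the start (34198087 to 34198813). Psmb8 was the sole gene of the 40 with the mark and KMT9beta but without KMT9alpha. Psmb10 (chr8:105935735-105938444) had KMT9alpha at 1501.60 and KMT9beta at 169.71 and no mark. Its KMT9alpha peak lay 164 to 1788 bp downstream of the annotated start, inside the gene, and Psmb10 was the member whose highest KMT9alpha peak covered no start. Its CpG ratio was the lowest of the 40 genes.

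The 2 tissue-restricted genes had few peaks, too few genes to show a trait of the class. KMT9alpha was present at 0 of 2 (up to 84.2%), against 54.2% of all genes and 43.2% by CpG class. H4K12me1 was also present at 0 of 2, against 44.9% and 39.2%. KMT9beta was present at 1 of 2 (1.26% to 98.7%), against 65.1% and 60.5%. All these background shares lie inside the intervals. Psmb11, the thymus subunit that takes the place of Psmb5 in thymic cortical epithelium, lies near Psmb5 on chromosome 14 and had none of the 3. The nearest peaks to its start were a KMT9beta peak at 1521 bp and a KMT9alpha peak at 4909 bp. Psma8, the testis paralogue of Psma7, scored 57.78 in the KMT9beta list and had neither KMT9alpha nor the mark. Together with Psmb8 these were the 3 members without KMT9alpha.

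**Figure D2:**
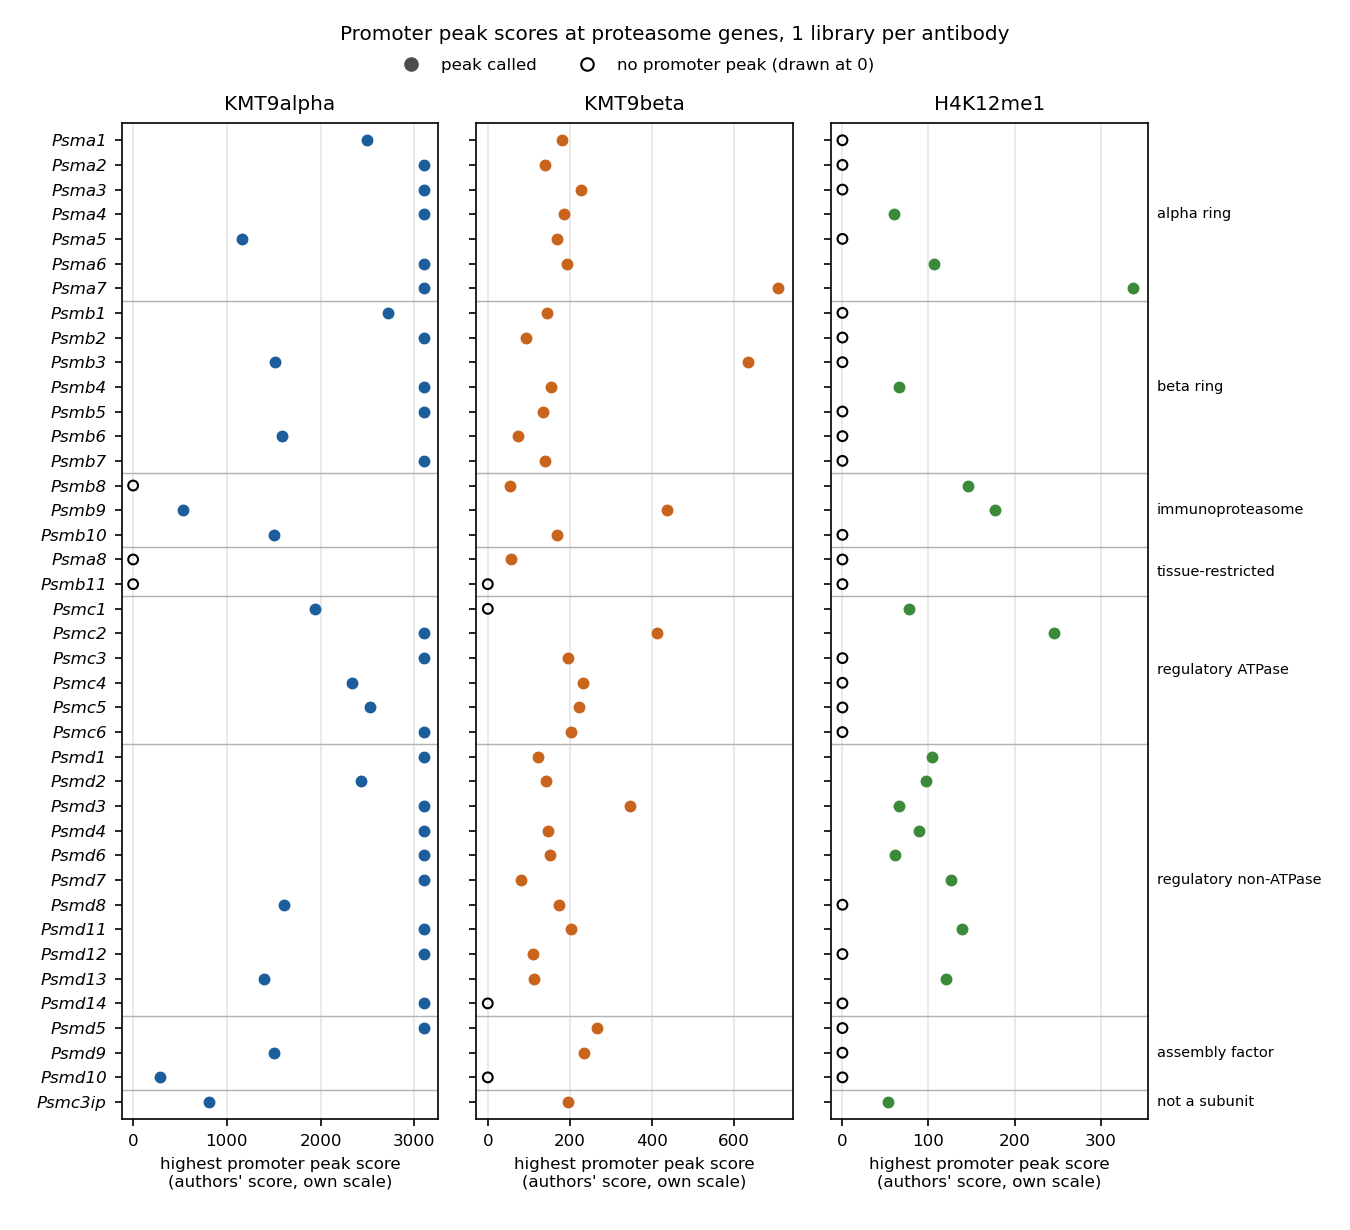
Highest promoter peak score (x axis, the authors' score, a separate scale for each library) for each of the 40 genes (rows, grouped by class); filled points are called peaks and open points at 0 are promoters without a peak. In the KMT9alpha panel 21 genes sit at 3100, in the H4K12me1 panel 23 genes have no peak, and 8 of the 11 regulatory non-ATPase genes have one.

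All 17 genes of the regulatory particle had KMT9alpha (80.5 to 100) and 15 had KMT9beta (88.2%, 63.6 to 98.5). H4K12me1 was present at 10 (58.8%, 32.9 to 81.6) and all 3 at 9 (52.9%, 27.8 to 77.0). In genes of the same CpG classes these shares were 81.2%, 88.6%, 61.9% and 53.4%, and over all genes 54.2%, 65.1%, 44.9% and 35.5%. The shares of the mark and of all 3 were thus close to those of like promoters. The mark was present at 8 of 11 non-ATPase genes (72.7%, 39.0 to 94.0) against 62.3% by CpG class, and at 2 of 6 ATPase genes (33.3%, 4.33 to 77.7), against 61.0%. Both CpG class values lie inside the intervals. The 2 intervals overlap, as do those of the core and the regulatory particle, and a difference between the classes was not tested.

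Among the ATPases, which unfold the substrate, Psmc2 alone carried all 3, with 3100 for KMT9alpha, 413.23 for KMT9beta and 245.85 for H4K12me1. Psmc2 (chr5:21785283-21803787) lies between 3 and 33 Mb of chromosome 5, a stretch with 67.1 KMT9alpha peaks per Mb against 13.2 on the rest of the chromosome, and with 75.8 against 35.7 H4K12me1 peaks and 65.7 against 55.5 KMT9beta peaks per Mb. It also shares its promoter with Dnajc2, 32 bp away. Both the density and the shared start move with its scores, and their part in them was not tested. Psmc1 had KMT9alpha at 1942.50 and H4K12me1 at 77.03 without KMT9beta, whose nearest peak lay 3610 bp away. Psmc3, Psmc4, Psmc5 and Psmc6 had both enzyme proteins and no mark, with KMT9beta scores from 196.63 to 232.22, a narrow range.

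Among the non-ATPases all 3 were found at Psmd1 and Psmd2, the large scaffold subunits, at Psmd3, at Psmd4, a ubiquitin receptor, and at Psmd6, Psmd7, Psmd11 and Psmd13. H4K12me1 scores of these 8 ran from 61.60 at Psmd6 to 139.33 at Psmd11. At Psmd3 the mark lay at another start than the enzyme: its H4K12me1 peak was 4755 bp downstream of the principal start, where the KMT9alpha and KMT9beta peaks lay, so 7 of the 8 had all 3 at the same start. Psmd7, which forms a pair with Psmd14, had KMT9alpha at 3100, KMT9beta at 81.08 and H4K12me1 at 125.95. Psmd14, the deubiquitinase of the particle, had KMT9alpha at 3100 and neither KMT9beta, whose nearest peak was 49036 bp away, nor the mark. Psmd8 and Psmd12 had both enzyme proteins only.

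The chaperones that assemble the regulatory particle, Psmd5, Psmd9 and Psmd10, had KMT9alpha at 3 of 3, KMT9beta at 2 of 3 and the mark at none. For KMT9alpha (29.2 to 100) the share was 54.2% over all genes and 64.4% by CpG class. For KMT9beta (9.43 to 99.2) these were 65.1% and 75.5%, and for the mark (0%, up to 70.8) 44.9% and 52.1%. All lie inside the intervals. Psmd10, on chromosome X, had the lowest KMT9alpha score of the members, 291.87. It shares its promoter with Atg4a, 179 bp away. Psmc3ip, the member by symbol alone, also had all 3. Its KMT9alpha score was 811.48 and its KMT9beta score 196.45, and its H4K12me1 score, 52.73, was the lowest of the members.

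KMT9alpha scores of 3100 or more were found at 21 of 40 members (52.5%) against 24.7% of all genes, and the median member stood at percentile 87.3 of all genes, the middle of the genes tied at that score, so the list gives no order among them. In the KMT9beta list the median member stood at percentile 58.8, and 10 of 40 reached the median score of called promoters, 206.49, against 32.5% of all genes. Among genes at the KMT9alpha score of 3100 or more the median KMT9beta score was 276.58 over all genes and 153.08 over the 21 members. In the H4K12me1 list 8 of 40 members reached the median of called promoters, 104.12, against 22.5% of all genes. These shares of all genes were not matched for CpG class, and the part of CpG content in the scores was not tested.

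Where called, the peaks of the 3 libraries mostly lay on one another, as they did over all genes. KMT9alpha and KMT9beta peaks overlapped at 34 of the 34 members that had both, and over all genes in 98.9%. Peaks of all 3 overlapped at 14 of the 15 members with all 3, Psmd3 being the exception, and over all genes at 7257 of 7747. KMT9alpha peaks covered an annotated start in 36 of 37 members (97.3%, against 93.4% of all genes with a peak). KMT9beta peaks did so in 35 of 36 (97.2%, against 90.6%) and H4K12me1 peaks in 15 of 17 (88.2%, against 69.0%). Psmb8 and Psmd11 were the 2 members whose highest H4K12me1 peak began downstream of the start, and Psmd9 was the member whose highest KMT9beta peak covered none. The midpoint of the highest KMT9alpha peak lay a median of 137 bp downstream of the nearest start (-503 to 976 bp, negative being upstream), against 92 bp over all genes. The median member peak was narrower than over all genes in the KMT9alpha list (1236 against 1357 bp) and the KMT9beta list (1249 against 1467 bp), and of like width in the H4K12me1 list (769 against 766 bp).

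**Figure D3:**
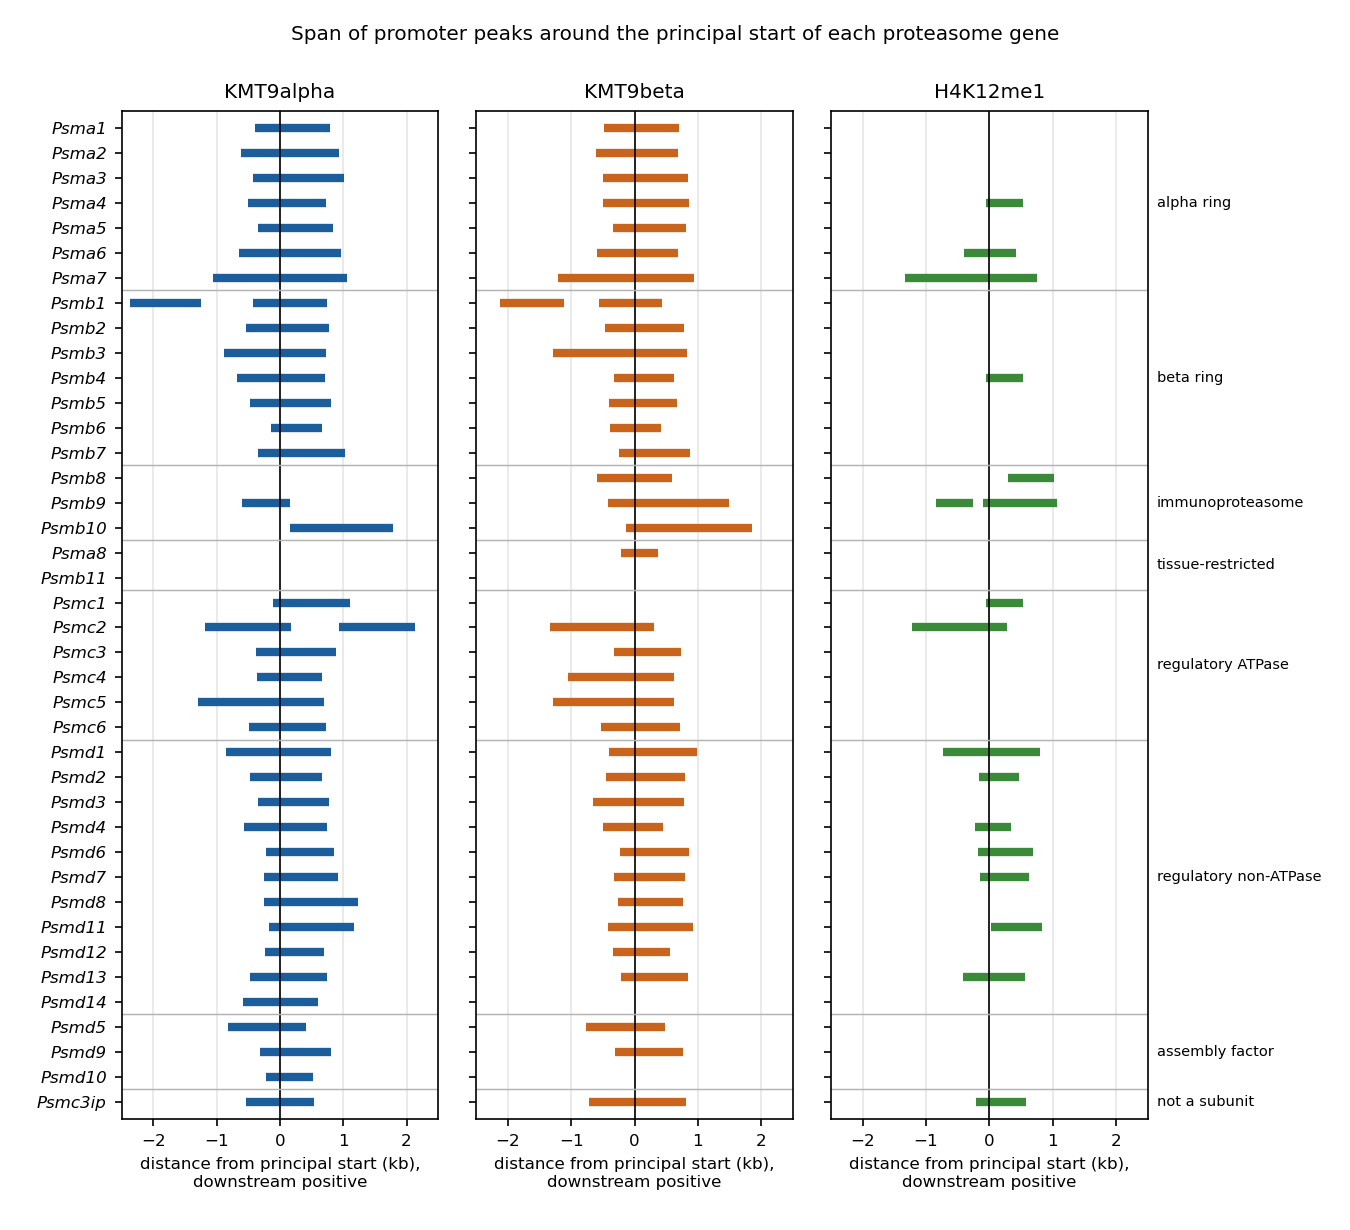
Span of each promoter peak (bars) along the distance from the principal start of each gene (x axis, kb, downstream positive) in the 3 libraries, with genes in rows by class; peaks at alternative starts beyond 2.5 kb are not drawn. KMT9alpha and KMT9beta bars cross the start in nearly every row, the Psmb10 KMT9alpha bar runs from 164 to 1788 bp downstream, and the H4K12me1 bars are shorter and missing in most rows of the beta ring.

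A start of another gene on the opposite strand lay within 1 kb for 9 of 40 members (22.5%) against 11.4% of all genes. The pairs were Psma2 with Mrpl32, Psma4 with AY074887, Psma7 with Ss18l1, Psmb1 with Tbp, Psmb9 with Tap1, Psmc2 with Dnajc2, Psmc5 with Ftsj3, Psmd10 with Atg4a and Psmd13 with Sirt3. At these 9, the mark was present at 5 (55.6%), and at the 31 unshared ones at 12 (38.7%). Over all genes these shares were 65.3% and 42.3%. The comparisons with all genes for shared promoters were not matched for CpG class. A peak at a shared promoter cannot be assigned to either gene. The 2 highest H4K12me1 scores of the constitutive subunits, 337.67 at Psma7 and 245.85 at Psmc2, were both at shared promoters.

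Outside their promoters, KMT9alpha peaks were found within 3 of 40 gene bodies (7.50%, 1.57 to 20.4), against 19.8% of all genes. KMT9beta peaks were found within 18 (45.0%, 29.3 to 61.5), against 49.5%, and H4K12me1 peaks within 12 (interval 16.6% to 46.5%), against 41.0%. All 3 background shares lie inside the intervals, and gene length was not matched. Psmd9 held the most KMT9beta peaks, 7, and Psmd9 and Psmc2 the most H4K12me1 peaks, 4 each. For the 19 members with both enzyme proteins and no mark, the nearest H4K12me1 peak lay a median of 14313 bp from the principal start (1501 to 47769 bp), against 13600 bp over the 3390 genes in that state.

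The promoter sequence was compared for 6 motifs in RefSeq windows of 250 bp before to 50 bp after the start. The table held 35 windows of 33 members, and Psma8, Psmb1, Psmb2, Psmb7, Psmc3, Psmd3 and Psmd7 were not among them. The ETS motif CCGGAAG was found in 12 of 35 member windows (34.3%) against 11.9% of 20143 windows of protein-coding genes and 15.4% in windows of the same CpG classes. It was unevenly spread, in 10 of 15 windows of the regulatory particle (16.4% by CpG class) and 1 of 12 of the core (16.6% by CpG class). The antioxidant response core TGACNNNGC, through which NFE2L1 and NFE2L2 are known to act on proteasome genes, was found in 5 of 35 windows (14.3% against 13.1%, and 13.7% by CpG class), those of Psmb5, Psmb6, Psmc6, Psmd9 and Psmd12. CCAAT, the box of NF-Y, was found in 40.0% of member windows against 37.8%, and 37.7% by CpG class. GGGCGG, the box of Sp1, was found in 54.3%, above the 47.7% of all windows and below the 60.3% by CpG class. The interferon-stimulated response element was found at none of the 3 immunoproteasome windows (8.57% of member windows against 3.42%, and 2.73% by CpG class), and TTCNNNGAA, bound by STAT factors, at 1 of 3, that of Psmb8. All motifs were read on both strands, and a match is a run of letters, not a binding site.

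The mark was then counted at members with and without each motif. It was present at 9 of the 11 members with CCGGAAG (81.8%, 48.2 to 97.7) and at 6 of the 22 without it (27.3%, 10.7 to 50.2), and these intervals overlap. Psmd4 and Psmd2, printed above, are among the 9, and Psmc6 and Psmd12 are the 2 members with the motif and no mark. Over all genes of the 3 upper CpG classes the shares were 62.8% (60.7 to 65.0) of 1989 genes with the motif and 64.2% (63.2 to 65.3) of 8199 without it. The 5 members with TGACNNNGC all lacked the mark (0%, up to 52.2), against 15 of 28 members without this motif (53.6%, 33.9 to 72.5), intervals that also overlap. Over the 3 upper CpG classes these shares were 66.1% and 63.5%. The members were not limited to those classes. Psmb10, Psmb11 and Psmd10, of CpG class 2, had neither motif and no mark, and they count among the members without a match. These pairs of shares were looked at after the counts of each motif were known, for 6 motifs in all, and Psmc6 and Psmd12 belong to both motif groups.

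**Figure D4:**
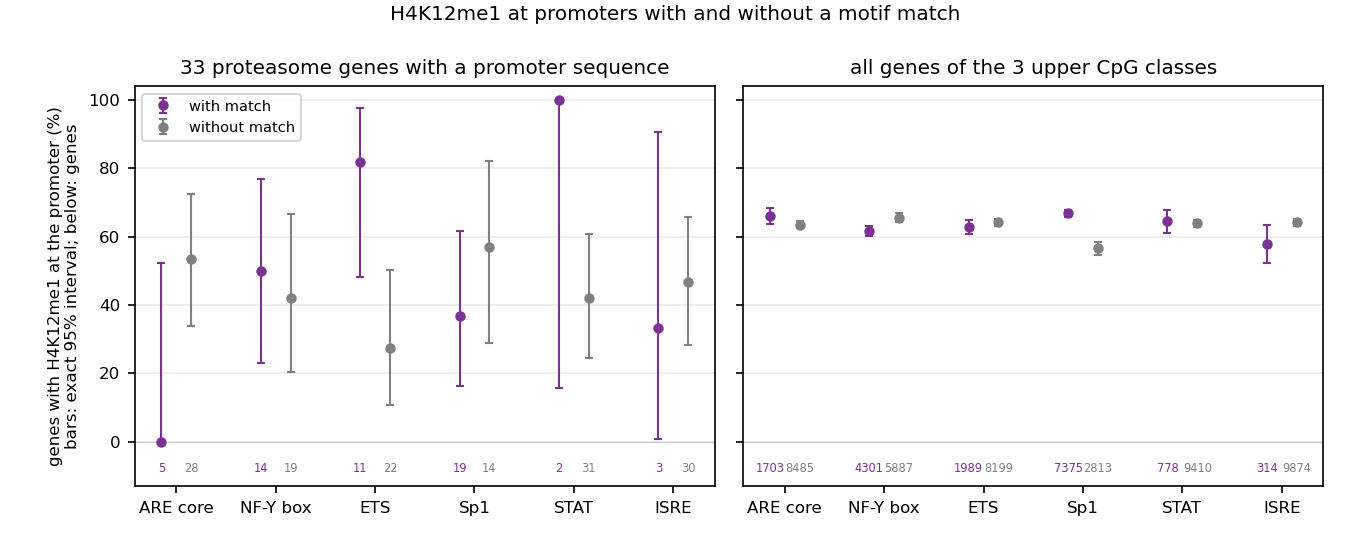
Share of genes with H4K12me1 at the promoter (y axis, %) with a motif match (purple) and without one (grey) in the RefSeq window, for 33 proteasome genes (left) and all genes of the 3 upper CpG classes (right); bars are exact 95% intervals and the numbers under the points are genes. The ETS pair is 81.8% and 27.3% at left and 62.8% and 64.2% at right.

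Other genes of the pathway were read in the same way, and most carried all 3. A list of 37 such genes was used, of which 36 were matched by symbol (AI314180 was not). KMT9alpha was present at 35 of 36 (97.2%, 85.5 to 99.9), against 54.2% of all genes and 78.1% by CpG class. KMT9beta was present at 35 (the same interval), against 65.1% and 86.0%. H4K12me1 and all 3 were each present at 25 (69.4%, 51.9 to 83.7). For the mark this stands against 44.9% of all genes and 60.7% by CpG class, and for all 3 against 35.5% and 52.3%. The CpG class values for KMT9beta, the mark and all 3 lie inside the intervals. The interval for the mark overlaps that of the 40 members. The 5 genes that the list grouped under transcription of proteasome genes all carried all 3 (47.8 to 100, against 58.6% by CpG class, inside the interval). They were Nfe2l1, its relative Nfe2l2, the protease gene Ddi2, the deglycosylase gene Ngly1 and Akirin2. Nfe2l1, the factor that restores proteasome synthesis when activity falls, had 3100, 328.93 and 170.15 for KMT9alpha, KMT9beta and H4K12me1. Ddi2, Ngly1 and Akirin2 encode no transcription factor, so the group is one of the list only. The genes of antigen processing carried all 3 at 8 of 9 (88.9%, 51.8 to 99.7), against 35.5% of all genes and 41.2% by CpG class. Among them were Tap2, B2m, Irf1 and Tap1, which has the same promoter and peaks as Psmb9. Nlrc5, the transactivator of MHC class I, had KMT9beta alone, at 112.93. Tap2, in the same cluster as Psmb8 and Psmb9, had 423.35, 89.32 and 190.25.

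Genes that build or cap the particle were mixed. Of the assembly chaperones of the core, Psmg2, Psmg3 and Psmg4 had all 3, and Pomp and Psmg1 had both enzyme proteins only. The interferon-induced activator genes Psme1 and Psme2 carried all 3, with H4K12me1 at 74.79 and 213.66, as did Psme4, while Psme3 and the inhibitor gene Psmf1 lacked the mark. In the group of the list that holds ubiquitin receptor and deubiquitinase genes among others, Uchl5 and Txnl1 had all 3. Adrm1, Sem1 and Usp14 of that group had both enzyme proteins only. Uba1, the main ubiquitin-activating enzyme, on chromosome X, had KMT9alpha alone, at 1088.54, as Psmd10 on that chromosome did.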

How the data were processed

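Peaks come from the authors' deposited lists, 1 per antibody. They were mapped to mm10, per the labels' protocols, which name STAR, while Bowtie2 is named in the submitters' processing notes. Peak names begin with MACS, per the files. The sources used here give neither the caller's version, threshold and control nor the exact meaning of the score that the authors deposited with each peak. The lists held 26227 KMT9alpha, 90473 KMT9beta and 60409 H4K12me1 peaks, of which 26146, 90349 and 60289 on chromosomes 1 to 19, X and Y were used, with lowest scores of 50.01, 50.00 and 50.00.

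Genes, starts and exons were those of GENCODE vM21, on the same assembly. Percentiles rank the highest promoter score over all 21853 genes, ties at their middle. The overlap step was tested on simulated data. The members, gene lists and motifs were chosen with earlier results of these data known. Values of some genes of the pathway list are not reported here. All 40 members could be named, with full values for the immunoproteasome and its counterparts, members lacking KMT9alpha, score extremes, shared promoters and the dense stretch of chromosome 5. Alternatives changed the promoter window, which starts were used, how peaks were assigned, which scores or how many peaks were kept, and which members. The tools were numpy 2.4.6 and scipy 1.17.1 for the computation, pandas 2.3.3 for the tables and matplotlib 3.10.9 for the plots, under Python 3.11.15.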

Additional observations from a re-analysis of the deposited data

How the results depend on the processing

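Of 244 values recomputed under other settings, 157 were identical to the reported one, many of them because the setting left that class or list as it was, and 10 left the exact 95% interval of the reported share. For the 3 immunoproteasome genes these intervals are too wide to show stability. With each list reduced to its 26146 highest peaks, KMT9beta was present at 70.0% of the members (48.0% of all genes), all 3 at 17.5% of the members (22.2% of all genes) and at 23.5% of the regulatory particle. With only the peaks that reached their list's median score, all 3 were present at 22.5% of the members (23.1% of all genes). With promoters of 5 kb either side, all 3 were present at 55.0% of the members (43.4% of all genes) and KMT9alpha at 100% of the immunoproteasome, and none of the 3 at 0% of the members with promoters of 2 kb or 5 kb. All 3 were present at 0% of the immunoproteasome genes once members with a shared promoter were left out, and peaks of all 3 overlapped at 0% of them where 50% of the shorter peak had to be covered. H4K12me1 was present at 14.3% to 42.9% of the constitutive core and at 41.2% to 64.7% of the regulatory particle across the settings. Over all genes its share ran from 28.9% to 55.0%. The core lay below the regulatory particle in each setting, but the settings reuse the same peaks and add no evidence of a difference between the classes. Leaving out Psmc2 or Psmd10, settings added after seeing the data, gave shares inside the interval. No paired analysis was possible because there is 1 library per antibody and a single condition. The unknown depth limits every statement that a peak is missing.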

Other observations

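The 4 annotated pseudogenes named after proteasome genes, Psmb5-ps, Psmb6-ps, Psmb6-ps2 and Psmb7-ps2, had no peak of any of the 3 libraries within 1 kb of their annotated start. Psmb7-ps2 is annotated as transcribed. Their parent genes Psmb5, Psmb6 and Psmb7 each carried KMT9alpha and KMT9beta. The sources used here do not say how reads matching both a gene and its copy were assigned.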
